A study of Mus musculus with 72 samples.

Results

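Monocytes and the macrophages of the brain's borders are marked here by 10 genes: the scavenger receptors Msr1 and Marco, the secreted factor Cd5l, the lectin Siglec1, the receptors Mrc1, Cd163 and Lyve1, the transglutaminase subunit F13a1, the chemokine receptor Ccr2 and the surface protein Ly6c2. They were chosen with earlier results of these data known, and were found by name through the Ensembl identifier of each symbol. They are 10 of the 35275 genes in the table of read counts. The mRNA of C57BL/6 mice aged 7 months was sequenced from the operated side of the cerebrum, from a slice midway along its length. All groups with stroke had 1 h of middle cerebral artery occlusion. The tissue was taken at the end of the occlusion (ischemia alone) or after 3, 12, 24 or 72 h of reperfusion, and sham mice served as the baseline. Each of these 6 stages was paired with every-other-day fasting (EOD, 24 h without food in alternation with 24 h of free feeding), daily fasting of 12 h (IF12), daily fasting of 16 h (IF16) or free access to food (AL, ad libitum). Daily fasting had lasted 4 months before the occlusion. Each of the 24 groups holds 3 libraries, so a stage has 12 and a regimen 18. No label states that the libraries of a group are separate animals, and the p-values here therefore measure the spread between samples, which may be technical. Neither the sex of the mice nor the sham operation nor the duration of EOD is given in the sources used here.

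Border macrophages sit around vessels that enter the brain, in the meninges and in the choroid plexus. They take up particles, modified lipoproteins and hemoglobin through scavenger receptors and lectins. Classical monocytes are a separate population that carries Ly6C and CCR2 and leaves the blood along a gradient of CCR2 ligands such as CCL2. After a stroke such monocytes enter the injured tissue and turn into macrophages that clear dead cells. Several of the 10 genes are shared between these cells: Msr1 and F13a1 are read in both, and Lyve1 is also made by lymphatic endothelium. In RNA from a whole slice, more cells of a type and more RNA per cell cannot be told apart.

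Library totals ran from 16735707 to 24763161 counts, and mitochondrial genes took 1.87 to 4.98% of them. Over the 72 libraries the 10 genes gathered between 67 counts (Marco) and 6345 counts (Msr1), so all are rare in this tissue. Mrc1, Cd163, Lyve1, F13a1 and Ly6c2 had at least 1 read in all 72 libraries, Siglec1 in 71, Ccr2 in 70, Msr1 in 69, Cd5l in 30 and Marco in 23. A filter on low counts preceded each of the 14 model fits. Mrc1, Cd163, Lyve1 and F13a1 passed it in 14 fits, Msr1 and Siglec1 in 12, Ccr2 and Ly6c2 in 11, Cd5l in 8 and Marco in 0. Msr1 and Ccr2 failed it in the fits of sham and of ischemia alone, and Ccr2 also at 3 h. Siglec1 and Ly6c2 failed it in the fits of ischemia alone and of 3 h, and Ly6c2 also at 24 h. Cd5l failed it in the fits of sham, ischemia alone, 3 h, 12 h, EOD and IF16. Where Msr1, Cd5l and Ccr2 passed in fits that span stages, they thus did so through the later stages at which they are high. The counts of members called, and the calls of these 3 genes, therefore describe genes that passed and not the whole set. Levels are CPM, counts per library size after scaling by the trimmed mean of M values, and a difference was called at an adjusted p under 0.05.

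The 10 genes lie on 9 chromosomes of GRCm38. Msr1 is at chr8:39581685-39642673 on the minus strand, Cd5l at chr3:87357881-87371073 on the plus strand and Siglec1 at chr2:131069220-131086765 on the minus strand. Mrc1 is at chr2:14229392-14332057 on the plus strand and holds the microRNA gene Mir511 on its own strand. Cd163 is at chr6:124304656-124330527 (plus), Marco at chr1:120474538-120505024 (minus), Lyve1 at chr7:110850607-110863239 (minus) and Ccr2 at chr9:124101950-124113557 (plus). F13a1 spans chr13:36867178-37050244 on the minus strand and overlaps 2 antisense genes, Gm49144 and Gm30489. Ly6c2 is at chr15:75108158-75111970 on the minus strand, beside its near-copy Ly6c1 at chr15:75044018-75048830 on the same strand. The sources used here do not say whether counting used strand, so reads of F13a1 and of its antisense genes cannot be told apart.

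Ly6c2 and Ly6c1 are shown because a read can belong to either. Over their coding sequences 384 of 393 bases were identical (97.7%). The first 90 coding bases hold 6 of the differing positions, given below in capitals, with both sequences 5′ to 3′ from the transcripts of the GRCm38 annotation.
Ly6c2: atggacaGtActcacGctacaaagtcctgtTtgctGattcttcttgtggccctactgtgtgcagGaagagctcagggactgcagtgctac
Ly6c1: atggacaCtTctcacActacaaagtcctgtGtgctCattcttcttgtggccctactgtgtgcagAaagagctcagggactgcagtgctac
Ly6C2 is the form carried by inflammatory monocytes, whereas Ly6C1 is also made by endothelial cells. Ly6c1 averaged 36.6 ± 9.07 CPM at 72 h and 32.1 ± 8.62 CPM in sham (SD, n = 12 each). Ly6c2 averaged 0.894 ± 0.836 CPM at 72 h and 0.316 ± 0.197 CPM in sham. Values of Ly6c2 are therefore uncertain wherever a read could have been placed on either gene, and the counting rule is not given in the sources used here.

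Per kilobase of gene model, the members differed widely in the uninjured slice. Cd163, the receptor for hemoglobin bound to haptoglobin, and Mrc1, the mannose receptor, stood highest in sham with 0.582 ± 0.310 and 0.526 ± 0.185 CPM per kb (SD, n = 12), a gap smaller than either spread. F13a1 and Ly6c2 came next with 0.293 ± 0.129 and 0.270 ± 0.168 CPM per kb, again within their spread. Lyve1, a hyaluronan receptor, had 0.193 ± 0.0982 CPM per kb. Siglec1 (0.0707 ± 0.0531), Ccr2 (0.0514 ± 0.0309), Msr1 (0.0319 ± 0.0333), Marco (0.0207 ± 0.0337) and Cd5l (0.00409 ± 0.00956) were at the low end, with neighbours closer than their spread. At 24 h of reperfusion the order of the mean levels was led by Msr1 with 5.18 ± 2.80 CPM per kb, followed by Lyve1 (1.25 ± 0.857) and Mrc1 (1.21 ± 0.251). At 72 h Msr1 (2.94 ± 4.11), Cd5l (2.57 ± 3.62), Mrc1 (1.96 ± 1.30), F13a1 (1.71 ± 1.88) and Siglec1 (1.38 ± 1.57) had the highest means per kb, and none of these neighbours differed beyond its spread. Cd163, first in sham, came after Msr1, Lyve1, Mrc1 and F13a1 at 24 h and after Msr1, Cd5l, Mrc1, F13a1 and Siglec1 at 72 h, with 0.530 ± 0.229 and 0.831 ± 0.428 CPM per kb.

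**Figure D1:**
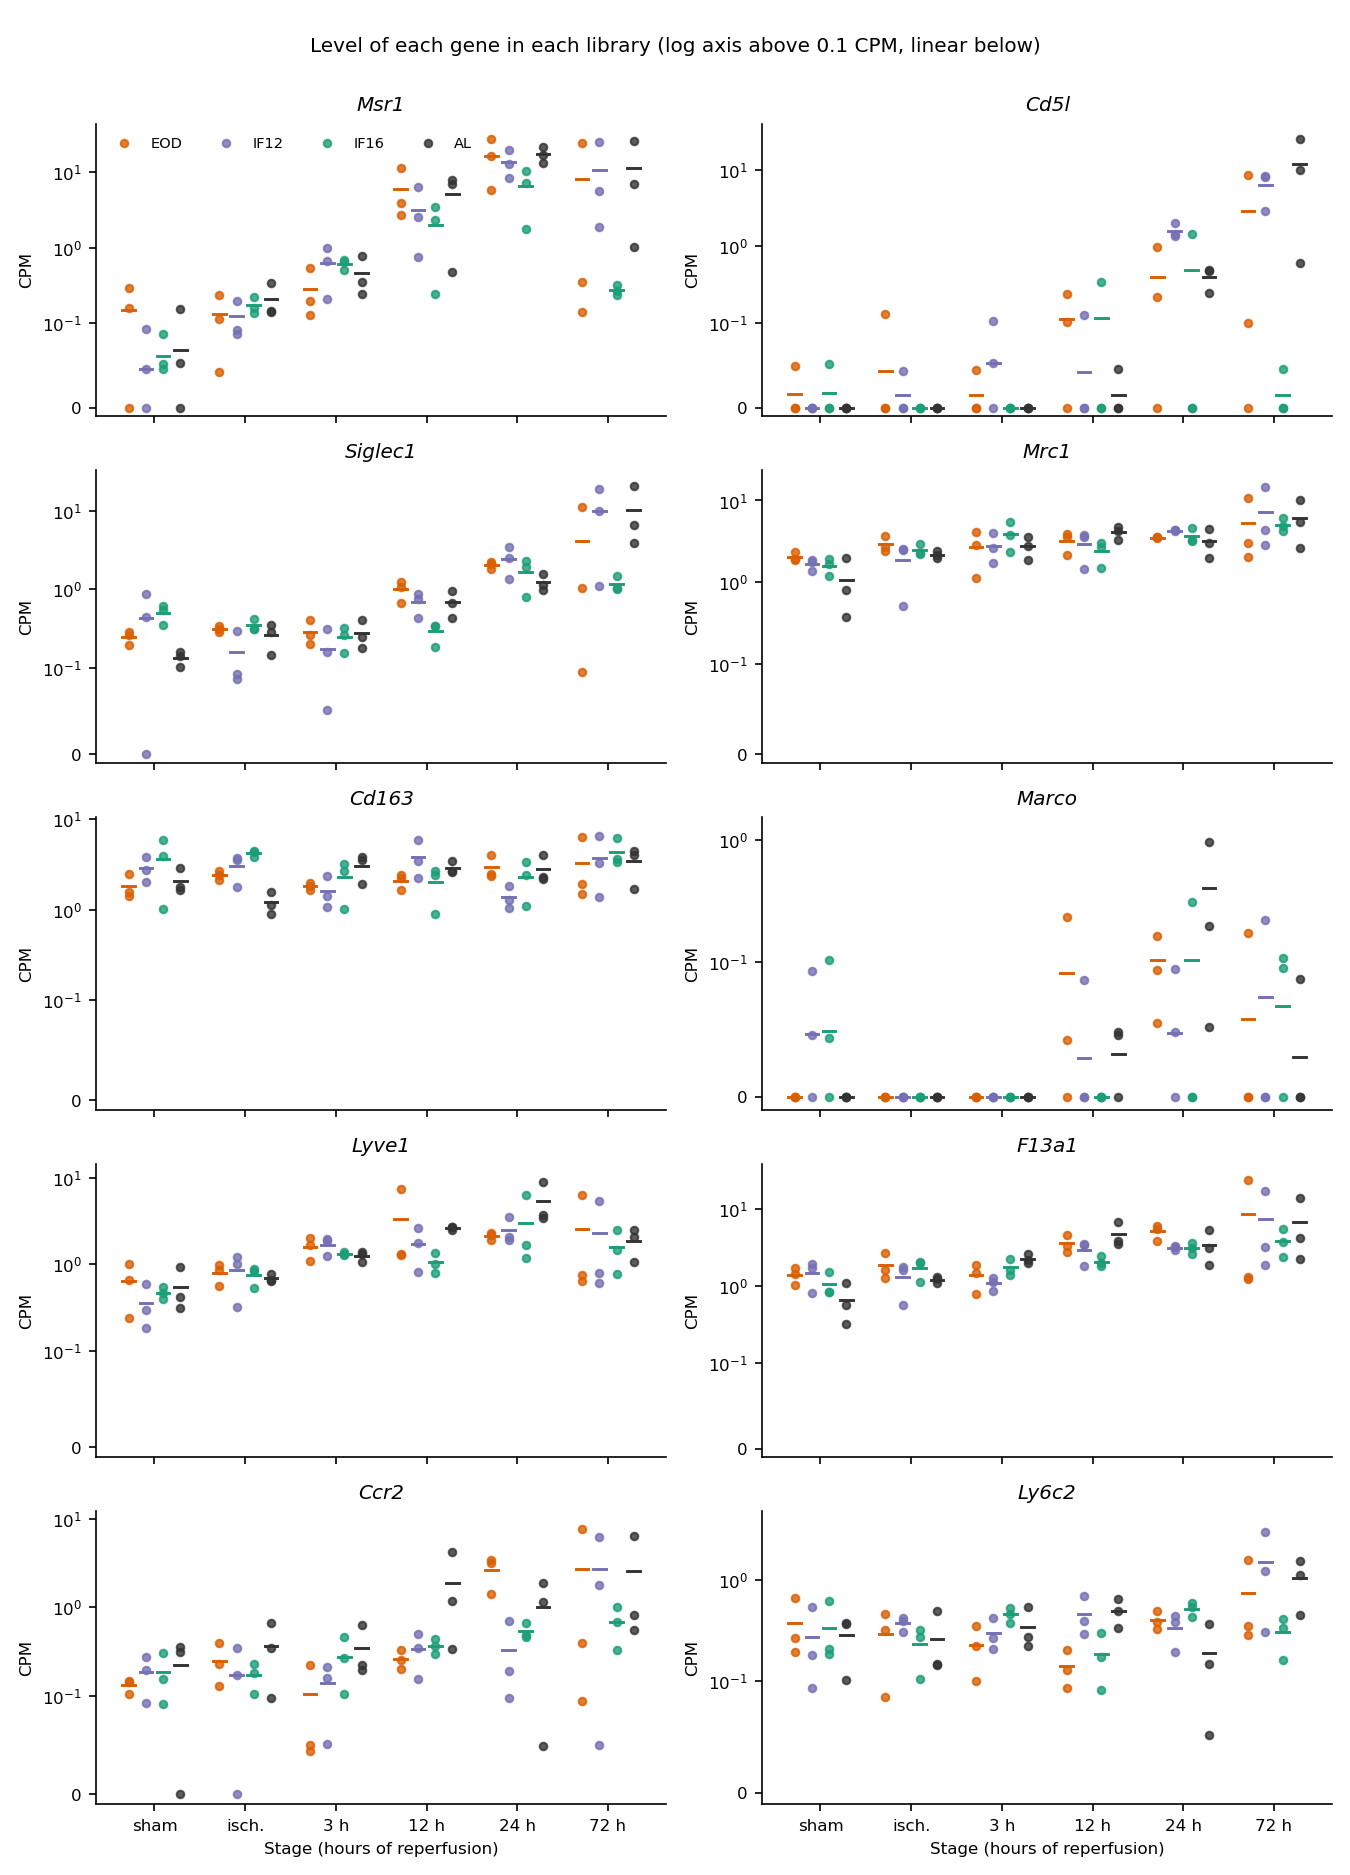
CPM of each of the 10 genes in every library, on an axis that is linear below 0.1 CPM and logarithmic above. Stages run from sham to 72 h, regimens run EOD, IF12, IF16 and AL within a stage, points are libraries and bars are the mean of 3. Msr1 lies between 1.73 and 26.9 CPM in all 24 h libraries and at or under 0.292 CPM in all sham libraries, and the 72 h groups hold libraries far apart for most genes.

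Averaged over the 4 regimens, stroke raised 7 of the 9 tested members at 24 h and 8 of 9 at 72 h, and lowered none. Among the members whose groups all held reads, Msr1 had the highest fold at both stages, followed by Siglec1 at 72 h. Msr1, Mrc1 and Lyve1 were already higher at 3 h, F13a1 at 12 h, and Ly6c2 only passed the test at 72 h. Cd163 passed at no stage. All these comparisons share the 12 sham libraries. Each fold is the mean of the 4 log2 fold changes within regimens, with its standard error, from edgeR's quasi-likelihood test with Benjamini-Hochberg adjustment over 17268 genes. The share of those genes called in either direction was 0.139% for ischemia alone, 21.8% at 3 h, 21.6% at 12 h, 49.8% at 24 h and 27.2% at 72 h. For genes called higher it was 0.116%, 10.7%, 11.8%, 25.4% and 16.1% at the same stages. The members called higher numbered 0, 3, 4, 7 and 8 of 9 at the same stages, by edgeR. After ischemia alone DESeq2 called 0 as well, and 1 member had an unadjusted p under 0.05. The median log2 fold change of the 9 was 2.19 at 24 h and 2.54 at 72 h, while that of all tested genes was 0.0028 at 24 h and -0.0024 at 72 h.

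**Figure D2:**
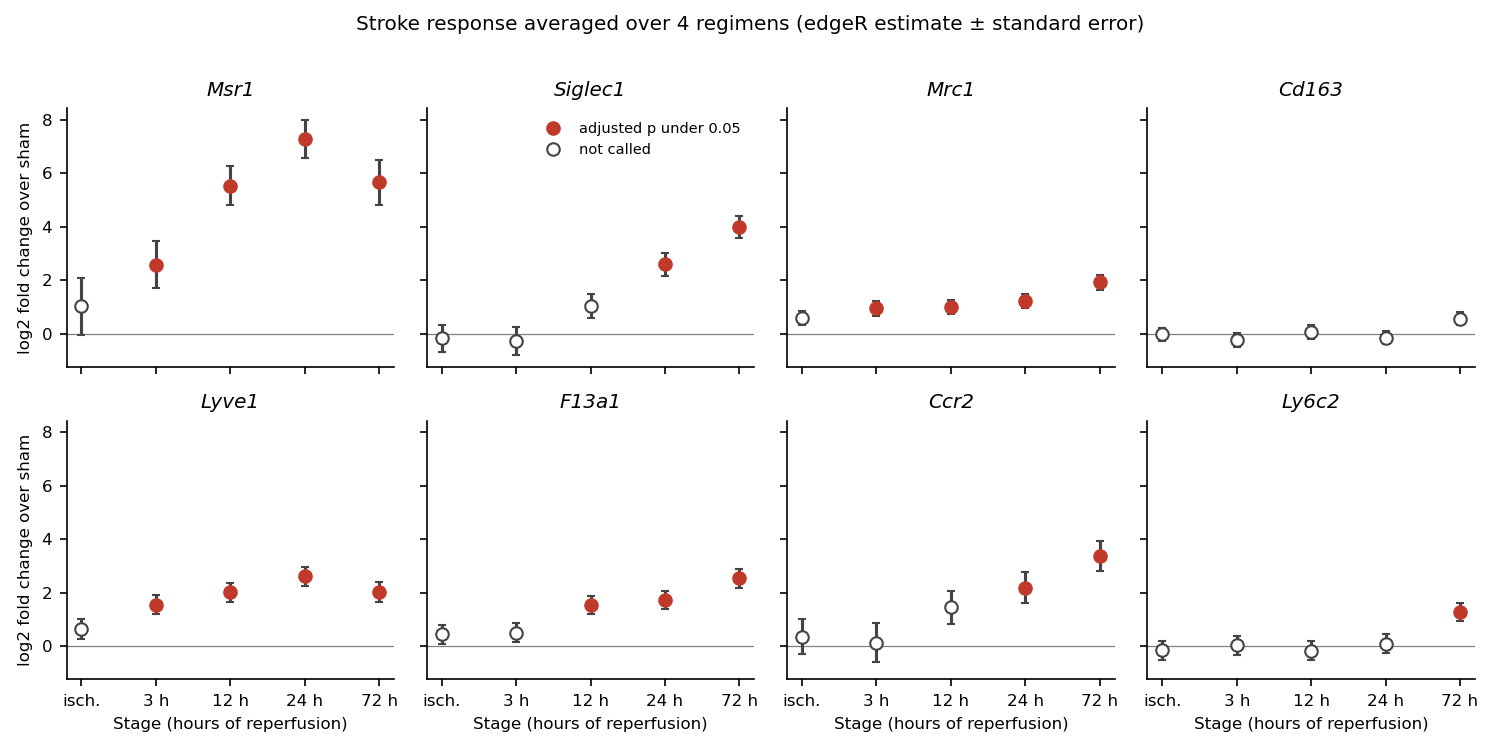
Log2 fold change over sham at the 5 later stages, averaged over the 4 regimens, for the 8 members other than Cd5l and Marco. Bars are standard errors from edgeR and red points have an adjusted p under 0.05. Msr1 peaks at 24 h with 7.28, Siglec1, Mrc1, F13a1, Ccr2 and Ly6c2 are highest at 72 h, and Cd163 stays between -0.14 and 0.56 at 24 and 72 h.

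Msr1 encodes scavenger receptor A, which binds modified lipoproteins and, in mouse stroke, proteins released from dying cells. Its 12 sham libraries had between 0 and 0.292 CPM (median 0.0519). The 12 libraries of each later stage had 0.0429 to 0.346 CPM after ischemia alone (median 0.144), 0.131 to 0.998 at 3 h (median 0.523), 0.246 to 11.2 at 12 h (median 3.04), 1.73 to 26.9 at 24 h (median 12.8) and 0.143 to 25.6 at 72 h (median 1.44). Above the highest sham library lay 1 of 12 libraries after ischemia alone, 8 at 3 h, 11 at 12 h, all 12 at 24 h and 9 at 72 h. The log2 fold change over sham was 2.59 ± 0.89 at 3 h (adjusted p = 0.0309), 5.54 ± 0.73 at 12 h (adjusted p = 6.44e-07), 7.28 ± 0.71 at 24 h (adjusted p = 6.22e-11) and 5.66 ± 0.84 at 72 h (adjusted p = 6.24e-07). The call at 3 h was lost without replicate 2 of AL, 3 of EOD or 2 of IF12 at 3 h, or replicate 3 of AL or 2 of IF12 in sham, with an adjusted p of up to 0.0844. In summed reads, the 24 h libraries held 3185 counts and the sham libraries 20, a ratio of 164 per library size (95% exact interval 106 to 268, counting error only). At 72 h the sum was 1906 counts, a ratio of 96.2 (62.1 to 158).

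Marco, a collagenous scavenger receptor of the same class that binds bacteria and particles, was close to absent. It had 6 counts over the 12 sham libraries, 0 after ischemia alone and at 3 h, 10 at 12 h, 37 at 24 h and 14 at 72 h. The 24 h sum was 6.34 times that of sham per library size (95% exact interval 2.65 to 18.4), and 16 of its 37 counts came from replicate 2 of AL. Marco could not be tested across genes at any stage. Levels of 0 after ischemia alone and at 3 h allow a ratio to sham of up to 0.825 and 0.860 by counting error.

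Cd5l encodes a protein that macrophages secrete, also called apoptosis inhibitor of macrophage. Of 12 libraries each, 2 had a Cd5l read in sham, 2 after ischemia alone, 3 at 3 h, 5 at 12 h, 9 at 24 h and 9 at 72 h. The summed counts were 2 in sham, 4 after ischemia alone, 4 at 3 h, 19 at 12 h, 182 at 24 h and 1337 at 72 h. Most of its 1548 reads thus came from the last stage. Per library size, the ratio to sham was 93.5 at 24 h (95% exact interval 25.5 to 778) and 675 at 72 h (187 to 5580). edgeR called Cd5l higher at both stages (adjusted p = 0.000106 at 24 h and 0.0454 at 72 h), but fitted folds of a gene with groups at 0 depend on the prior count and are not given. The 24 h call was lost without replicate 2 of IF16, which held 35 of that group's 35 counts, and the 72 h call was lost without any 1 of 10 libraries.

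Siglec1, a sialic acid receptor of perivascular and interferon-exposed macrophages, was called at 24 and 72 h. Its sham libraries ran from 0 to 0.863 CPM (median 0.274). They ran from 0.183 to 1.26 CPM at 12 h (median 0.676), from 0.811 to 3.50 at 24 h (median 1.86) and from 0.0952 to 20.8 at 72 h (median 2.69). Of 12 libraries each, 0 at 3 h, 4 at 12 h, 11 at 24 h and 11 at 72 h exceeded the highest sham library. The log2 fold change was 1.04 ± 0.46 at 12 h (adjusted p = 0.0958), 2.60 ± 0.42 at 24 h (adjusted p = 2.01e-06) and 4.00 ± 0.42 at 72 h (adjusted p = 3.63e-10).

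Mrc1, Lyve1 and F13a1 are expressed by resident perivascular and meningeal macrophages, and had reads in every sham library. Mrc1 ran from 0.376 to 2.31 CPM in sham (median 1.81), from 1.14 to 5.45 at 3 h (median 2.82), from 1.96 to 4.56 at 24 h (median 3.52) and from 2.05 to 14.6 at 72 h (median 4.58). Its log2 fold change was 0.59 ± 0.27 after ischemia alone (unadjusted p = 0.0351, not called), 0.95 ± 0.27 at 3 h (adjusted p = 0.00813), 1.00 ± 0.27 at 12 h (adjusted p = 0.00551), 1.24 ± 0.27 at 24 h (adjusted p = 0.000162) and 1.92 ± 0.27 at 72 h (adjusted p = 1.89e-07). Mrc1 therefore had small steps and overlapping ranges, with 9 of 12 libraries above the highest sham library at 3 h and 11 at 24 h.

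Lyve1 was called at all 4 stages of reperfusion. Its libraries ran from 0.186 to 0.997 CPM in sham (median 0.442), from 1.06 to 2.0 at 3 h (median 1.36), from 0.788 to 7.42 at 12 h (median 1.56), from 1.19 to 8.88 at 24 h (median 2.23) and from 0.607 to 6.26 at 72 h (median 1.27). Above the highest sham library lay 12 of 12 libraries at 3 h, 10 at 12 h, 12 at 24 h and 7 at 72 h, so the groups overlapped at 12 and 72 h. The log2 fold change was 1.55 ± 0.37 at 3 h (adjusted p = 0.00153), 2.01 ± 0.36 at 12 h (adjusted p = 9.11e-05), 2.61 ± 0.36 at 24 h (adjusted p = 8.87e-08) and 2.03 ± 0.36 at 72 h (adjusted p = 2.23e-05). Of the lymphatic endothelium markers, 3 of 4 could be tested and 2 were called higher at 24 h (Pdpn 1.85 ± 0.24, Flt4 1.03 ± 0.18), and their summed level was 50.3 to 135 CPM at 24 h and 26.0 to 57.6 CPM in sham. The part of these cells in the Lyve1 change was not tested.

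F13a1, the catalytic subunit of coagulation factor XIII that macrophages and monocytes carry, had 0.315 to 1.92 CPM in sham (median 1.05). It had 1.78 to 6.76 CPM at 12 h (median 3.34), 1.86 to 5.95 at 24 h (median 3.22) and 1.24 to 23.3 at 72 h (median 3.42). The medians of the 3 late stages were close, and the spread widened at 72 h. The log2 fold change was 1.53 ± 0.34 at 12 h (adjusted p = 0.000995), 1.72 ± 0.34 at 24 h (adjusted p = 4.76e-05) and 2.54 ± 0.34 at 72 h (adjusted p = 9.48e-08).

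Cd163 was called at no stage against sham, unlike Mrc1, Lyve1 and F13a1. It ran from 1.04 to 4.02 CPM at 24 h (median 2.32), from 1.37 to 6.54 at 72 h (median 3.49) and from 1.01 to 5.86 in sham (median 2.24). No library at 24 h and 3 of 12 at 72 h lay above the highest sham library. The log2 fold change over sham was -0.14 ± 0.25 at 24 h (adjusted p = 0.661) and 0.56 ± 0.25 at 72 h (adjusted p = 0.0889).

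Ccr2, the monocyte receptor for CCL2, had few reads. Its libraries ran from 0 to 0.358 CPM in sham (median 0.150), from 0.156 to 4.18 at 12 h (median 0.342), from 0.0489 to 3.42 at 24 h (median 0.689) and from 0.0506 to 7.59 at 72 h (median 0.756). The lowest libraries at 24 and 72 h were inside the sham range while the highest were far above it. The log2 fold change was 1.45 ± 0.62 at 12 h (adjusted p = 0.0839), 2.19 ± 0.59 at 24 h (adjusted p = 0.00196) and 3.36 ± 0.57 at 72 h (adjusted p = 7.97e-06). Ly6c2 was not called before 72 h, with 0.0519 to 0.584 CPM at 24 h (median 0.380) and 0.0932 to 0.664 CPM in sham (median 0.234), a log2 fold change of 0.09 ± 0.36 (adjusted p = 0.849). At 72 h it ran from 0.161 to 2.98 CPM (median 0.432), with 5 of 12 libraries above the highest sham library and a log2 fold change of 1.29 ± 0.33 (adjusted p = 0.00256). Ly6c1 was called higher at 24 h, by 0.46 ± 0.11 (adjusted p = 0.000692), and was not called at 72 h.

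Genes of 3 CCR2 ligands passed the test at stages where Ccr2 itself did not. Ccl2, the main chemokine for classical monocytes, had a log2 fold change over sham of 5.10 ± 0.74 at 3 h, 5.31 ± 0.74 at 12 h, 7.02 ± 0.72 at 24 h and 4.05 ± 0.98 at 72 h, all called. Ccl7, another ligand of the receptor, was called at the same 4 stages, with a median of 0 CPM in sham, 1.48 at 3 h, 0.431 at 12 h, 2.63 at 24 h and 0.156 at 72 h. Its median was thus lower at 12 h than at 3 or 24 h, and no fold is given because 1 sham group had no read. Ccl12, a rodent ligand, was called from 12 h (3.74 ± 0.56), with 5.77 ± 0.55 at 24 h and 3.57 ± 0.60 at 72 h. Ccl8, a related chemokine, was called at 72 h (median 0.494 CPM, against 0.0237 CPM in sham) and at no earlier stage. The Ccl2 libraries ran from 0.865 to 31.5 CPM at 24 h (median 9.27), from 0.0457 to 11.7 at 72 h (median 0.631) and from 0 to 0.233 in sham (median 0.0931).

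Between 24 and 72 h the members parted. Siglec1 rose by 1.4 ± 0.35 (log2, adjusted p = 0.00252), Ly6c2 by 1.19 ± 0.33 (adjusted p = 0.00651), F13a1 by 0.82 ± 0.31 (adjusted p = 0.0479), Cd163 by 0.70 ± 0.25 (adjusted p = 0.0346) and Mrc1 by 0.69 ± 0.25 (adjusted p = 0.04). Msr1 fell by 1.61 ± 0.49 (adjusted p = 0.012). Leaving out single libraries ended the call of F13a1 in 16 of 24 cases, of Mrc1 in 14 and of Cd163 in 11. It ended that of Siglec1 in 1, replicate 2 of EOD at 72 h (adjusted p = 0.0842). Ccr2 differed by 1.17 ± 0.48 (adjusted p = 0.0682) and Lyve1 by -0.58 ± 0.32 (adjusted p = 0.181), neither called. In this comparison 12.9% of 17268 genes were called higher and 11.6% lower, beside 5 and 1 of the 9 members. Ccl2 (-2.97 ± 0.55), Ccl7 (-2.67 ± 0.54) and Ccl12 (-2.21 ± 0.43) fell over the same interval and Ccl8 rose (3.01 ± 0.47). Between 12 and 24 h, where 16.4% of genes were called higher and 32.2% in either direction, Msr1 rose by 1.74 ± 0.46 (adjusted p = 0.00418), Siglec1 rose by 1.56 ± 0.38 (adjusted p = 0.00231) and Cd5l was called higher (adjusted p = 0.00424).

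The 72 h stage rested on a few libraries. Replicate 2 of EOD, replicate 2 of IF12 and replicate 3 of AL had the highest level in their own group for 10, 9 and 10 of the 10 genes. Msr1 had 0.348, 23.6 and 0.143 CPM in EOD, 1.87, 24.4 and 5.58 CPM in IF12, 0.320, 0.269 and 0.237 CPM in IF16 and 1.01, 6.85 and 25.6 CPM in AL (replicates 1 to 3). Siglec1 had 1.04, 11.2 and 0.0952 CPM in EOD, 1.11, 19.4 and 9.94 CPM in IF12, 1.01, 1.51 and 1.04 CPM in IF16 and 3.87, 6.66 and 20.8 CPM in AL. The 3 IF16 libraries were alike for both genes, while every other regimen held at least 1 library more than 3 times its lowest. F13a1 had 1.29, 23.3 and 1.24 CPM in EOD, 1.87, 16.9 and 3.14 CPM in IF12, 2.33, 5.38 and 3.70 CPM in IF16 and 4.18, 2.19 and 13.6 CPM in AL. Ccr2 had 0.397, 7.59 and 0.0952 CPM in EOD, 0.0506, 6.21 and 1.81 CPM in IF12, 0.686, 1.02 and 0.332 CPM in IF16 and 0.553, 0.826 and 6.39 CPM in AL. The same 3 libraries led both genes, and Ccr2 in 2 of the other 9 libraries lay under the sham median.

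**Figure D3:**
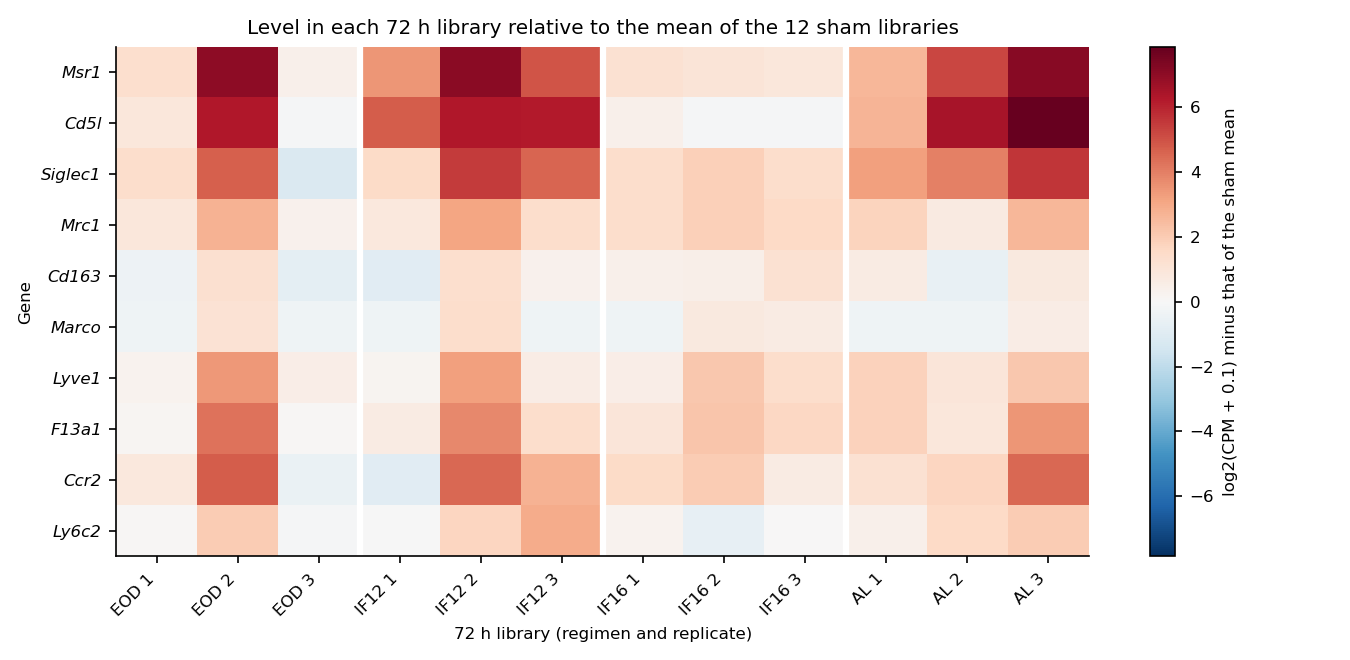
Log2(CPM + 0.1) of each gene in the 12 libraries at 72 h, minus that of the sham mean, as colour, with libraries in the order EOD, IF12, IF16 and AL. Replicate 2 of EOD, replicate 2 of IF12 and replicate 3 of AL are high across the set. The 3 IF16 libraries and replicates 1 and 3 of EOD are the lowest at 72 h for Msr1 and Cd5l.

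Markers of other cell types moved with this split. The 8 markers of meningeal fibroblasts, which include the collagen genes Col1a1 and Col3a1, summed to 1046 CPM in replicate 2 of EOD, 1206 CPM in replicate 2 of IF12 and 711 CPM in replicate 3 of AL, and to at most 296 CPM in the other 9 libraries at 72 h. In sham the sum ran from 79.9 to 188 CPM. All 8 were called higher at 72 h and 5 of 8 at 24 h. The 10 members summed to 99.5, 103 and 110 CPM in those libraries and to between 6.14 and 39.8 CPM in the other 9. The 8 microglia markers summed to 544, 739 and 844 CPM in them, against 207 to 616 CPM in the other 9. The 5 endothelial markers summed to 563, 379 and 337 CPM in them, against 146 to 233 CPM in the other 9, and the 8 neutrophil markers to 29.1, 19.3 and 22.7 CPM, against 5.06 to 14.6 CPM. Fibroblast, endothelial and neutrophil sums thus separated the 3 libraries without overlap, and the microglial sum overlapped. The 7 markers of striatal medium spiny neurons summed to 348, 165 and 444 CPM, within the 224 to 1621 CPM of the others apart from replicate 2 of IF12. The 5 choroid plexus markers summed to 10023 CPM in replicate 2 of EOD and to 900 to 2271 CPM elsewhere at 72 h. All 8 fibroblast markers had reads in all 72 libraries, and the part of meninges, vessels, neutrophils, choroid plexus or slice position in the members' levels was not tested.

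**Figure D4:**
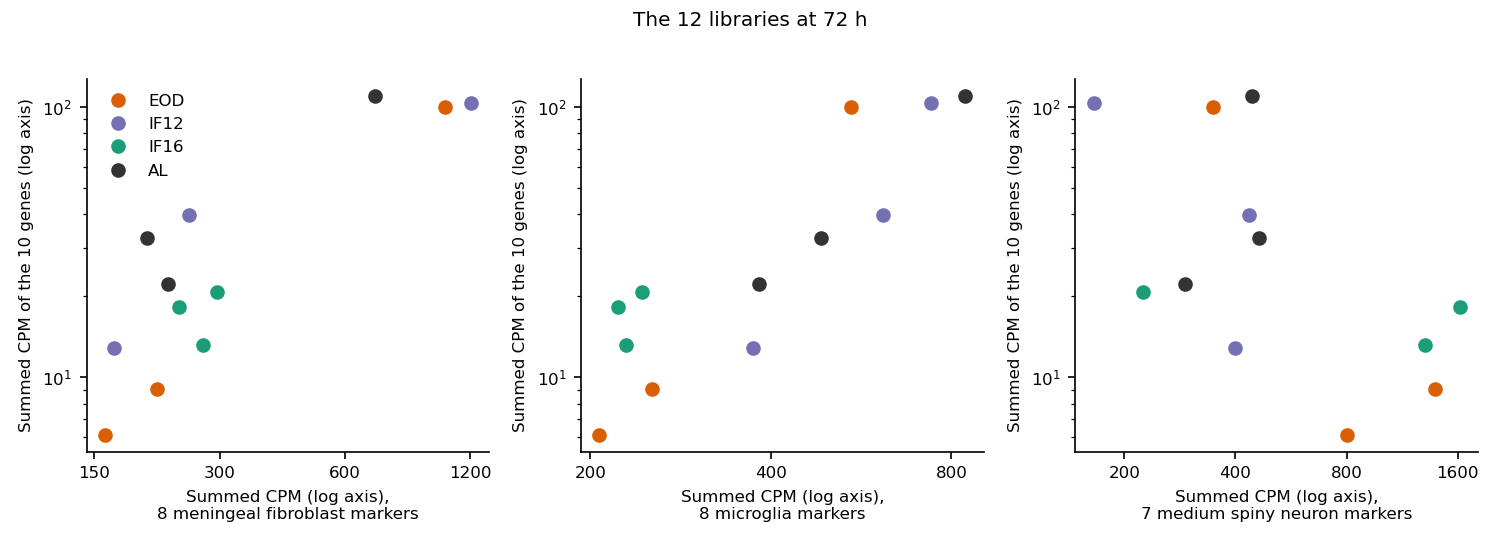
Summed CPM of the 10 members in the 12 libraries at 72 h, on log axes, against the summed CPM of 8 meningeal fibroblast, 8 microglia and 7 striatal medium spiny neuron markers. The 3 libraries with fibroblast sums of 711 to 1206 CPM are the 3 with member sums of 99.5 to 110 CPM.

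Left without those 3 libraries, a split chosen after the data were seen, 6 of the 8 calls at 72 h held. The share of all genes called in this refit is not given here. Msr1 was at 3.66 (adjusted p = 0.000325), Siglec1 at 2.82 (adjusted p = 1.97e-08), Mrc1 at 1.25 (adjusted p = 0.000119), Lyve1 at 1.08 (adjusted p = 0.023), F13a1 at 1.19 (adjusted p = 9.76e-05) and Ccr2 at 1.64 (adjusted p = 0.0277). Cd5l (adjusted p = 0.0711) and Ly6c2 (0.91, adjusted p = 0.0732) were no longer called. The difference between 72 and 24 h changed more. Msr1 stayed lower at 72 h (-3.61, adjusted p = 5.6e-08), F13a1 turned to -0.52 (adjusted p = 0.0493), and Siglec1 (0.22, adjusted p = 0.594), Mrc1 (0.03, adjusted p = 0.948), Cd163 (0.23, adjusted p = 0.499) and Ly6c2 (0.82, adjusted p = 0.0596) were no longer called. Lyve1 was called lower at 72 h in this comparison, and its 9 remaining libraries at 72 h lay between 0.607 and 2.47 CPM. Siglec1, Mrc1, Cd163 and F13a1 were thus not called higher at 72 h than at 24 h without those 3 libraries. Each of the 3 had the highest level of these genes in its group. Leaving them out was therefore bound to lower the 72 h means, while all 24 h libraries were kept.

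Within a regimen, 3 libraries were set against 3 in a fit of 18. No member was called after ischemia alone in any regimen by edgeR or DESeq2, and 0 had an unadjusted p under 0.05, where 0% of genes were called in EOD and AL, 0.0487% in IF12 and 0.0122% in IF16. At 24 h, in EOD 5.72% of tested genes were called in either direction and 2 of 8 members, Msr1 (6.71 ± 1.59, adjusted p = 0.0282) and Ccr2 (4.28 ± 1.16, adjusted p = 0.0437). In IF12 it was 40.7% and 4 of 9 members: Msr1 (8.0 ± 1.22), Cd5l, Siglec1 (2.49 ± 0.87) and Lyve1 (2.78 ± 0.76). In IF16 it was 16.5% and 5 of 8: Msr1 (6.57 ± 0.89), Siglec1 (1.75 ± 0.39), Mrc1 (1.22 ± 0.32), Lyve1 (2.70 ± 0.56) and F13a1 (1.54 ± 0.35). In AL it was 7.06% and 4 of 9: Msr1 (7.84 ± 1.30), Siglec1 (3.15 ± 0.67), Lyve1 (3.26 ± 0.44) and F13a1 (2.38 ± 0.60). Msr1 was the member called at 24 h in all 4 regimens. Its libraries at 24 h had 26.9, 5.74 and 16.1 CPM in EOD, 19.4, 8.24 and 12.7 CPM in IF12, 10.3, 7.13 and 1.73 CPM in IF16 and 12.8, 20.9 and 16.8 CPM in AL.

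At 72 h the regimens gave different numbers of calls. EOD had 0 of 8 members called, where 0% of genes were called, although the unadjusted p was under 0.05 for 6 of the 8 and DESeq2 called 3. IF12 had 8 of 9 called and a share of 24.5% of genes, with Cd163 as the exception. IF16 had 2 of 8 called and a share of 0.483%, Mrc1 (1.66 ± 0.32) and F13a1 (1.85 ± 0.35), both with an adjusted p of 0.0342. AL had 6 of 9 called and a share of 5.12%, with Siglec1 at 6.21 ± 0.64 (adjusted p = 5.18e-05), Msr1 at 7.24 ± 1.30, F13a1 at 3.33 ± 0.60, Mrc1 at 2.51 ± 0.52, Lyve1 at 1.75 ± 0.44 and Cd5l. Cd5l reads at 72 h numbered 200 in EOD, 353 in IF12, 1 in IF16 and 783 in AL. Against the sham group of the same regimen, which had 0 reads, this was at least 133-fold higher in IF12 and at least 247-fold higher in AL, with a floor of 3 counts over the group. In EOD the ratio was 188 (95% exact interval 33.4 to 7472, 1 sham count), and in IF16 it was 1.04 (0.0133 to 81.7), by counting error only. Replicate 2 of EOD held 198 of that group's 200 reads, so the EOD ratio rests on 1 library. Replicate 3 of AL held 571 of 783 reads, and the IF12 libraries had 56, 148 and 149. Without the 3 libraries of high fibroblast level, IF12 had 4 members called (Msr1 6.13, Siglec1 3.63, Ly6c2 2.57 and Cd5l) and AL had 4 (Msr1 5.76, Siglec1 5.24, F13a1 2.28 and Cd5l). The share of all genes called in these refits is not given here.

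At the earlier stages few members were called within a regimen. At 3 h IF12 had Lyve1 (2.20 ± 0.78, adjusted p = 0.0426) with 29.4% of genes called, and IF16 had Mrc1 (1.28 ± 0.32, adjusted p = 0.0243) with 8.62%. At 12 h AL had Msr1 (6.13 ± 1.32), Lyve1 (2.25 ± 0.44) and F13a1 (2.85 ± 0.60) with 1.6% of genes called, and the other regimens had none, with 0.0609% of genes called in EOD, 0.0122% in IF12 and 0.0856% in IF16. In these 3 regimens DESeq2 called 1 member each, and 2 each had an unadjusted p under 0.05. No member was called by edgeR or DESeq2 at 3 h in EOD (0.0548% of genes, 0 members with an unadjusted p under 0.05) or in AL (0.0365%, 3 members). Ccr2 at 12 h was 4.18, 0.336 and 1.17 CPM in AL, and between 0.156 and 0.50 CPM in the 9 fasted libraries. Lyve1 at 12 h in AL was 2.71, 2.5 and 2.7 CPM, above 0.921, 0.315 and 0.423 CPM in the AL sham libraries.

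Fasting compared with AL gave no call of a tested member by edgeR. Across 18 comparisons within a stage and 3 averaged over stages, 0 tested members passed. The filter left 6 members to test in sham, 4 after ischemia alone, 5 at 3 h, 8 at 12 h, 8 at 24 h and 9 at 72 h. Averages over stages tested 9. The share of all genes called was 8.75% in IF12 at 3 h, 0.277% in EOD at 3 h, 0.00579% in IF16 averaged over stages and 0% in the other 18. DESeq2 called 1 member in each of 3 of these comparisons, F13a1 in IF12 at 3 h and Cd163 in IF12 and in IF16 after ischemia alone. The lowest adjusted p of a member was 0.0636, for F13a1 in IF12 at 3 h (-1.04 ± 0.33). Between 0 and 4 members per comparison had an unadjusted p under 0.05. Cd163 after ischemia alone was 4.46, 4.32 and 3.83 CPM in IF16 and 1.14, 1.56 and 0.898 CPM in AL, groups that did not overlap. Its difference was 1.79 ± 0.29 with an unadjusted p of 3.55e-05 and an adjusted p of 0.232, and it was called by DESeq2, without the filter on low counts and in a fit of these 2 groups alone. The share of all genes without overlap between these groups is not given here. Ccr2 averaged over the stages differed by -1.11 ± 0.47 in IF12 (adjusted p = 0.874) and by -1.14 ± 0.46 in IF16 (adjusted p = 0.173).

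IF16 and AL stood far apart at 72 h in 3 members without passing the test. Msr1 was at 0.320, 0.269 and 0.237 CPM in IF16 and at 1.01, 6.85 and 25.6 CPM in AL, without overlap, a log2 difference of -5.28 ± 1.95 (adjusted p = 0.768). Siglec1 differed by -3.11 ± 1.34 (adjusted p = 0.768), also without overlap. The share of all genes without overlap between these groups is not given here. Cd5l had 1 count over the IF16 libraries and 783 over those of AL. In a fit of all 72 libraries, Msr1, Cd5l and Siglec1 passed the test in this comparison, so the calls depended on the fit. Marker sums of other cells also separated these groups at 72 h without overlap. Microglia markers summed to 222 to 244 CPM in IF16 and 382 to 844 CPM in AL, neutrophil markers to 5.06 to 5.98 and 8.30 to 22.7 CPM, and endothelial markers to 146 to 160 and 182 to 337 CPM, in the same order of groups. The 5 erythrocyte markers were higher in IF16, with 171 to 207 CPM, against 57.4 to 94.8 CPM in AL. Fibroblast sums overlapped, with 239 to 296 CPM in IF16 and 201 to 711 CPM in AL. The part of these cells in the difference was not tested.

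Whether the stroke response differed from that of AL was tested for the 5 later stages at once. No member was called by edgeR or DESeq2 in the EOD interaction (0% of genes called, 0 members with an unadjusted p under 0.05). None was called by edgeR in the IF12 interaction (15% of genes, 1 member with an unadjusted p under 0.05), where Cd163 had an adjusted p of 0.0648 and was called by DESeq2. In the IF16 interaction 0.273% of genes were called, and Siglec1 was 1 of them (adjusted p = 0.0104). Siglec1 in sham was 0.553, 0.616 and 0.350 CPM in IF16 and 0.102, 0.157 and 0.141 CPM in AL, so the sham groups already stood apart. Relative to sham, its log2 response in IF16 minus that in AL was -1.45 after ischemia alone, -2.04 at 3 h, -3.11 at 12 h, -1.41 at 24 h and -5.01 at 72 h. The call was lost without any 1 of the 3 IF16 libraries at 72 h (adjusted p = 0.101, 0.0695 and 0.117). The other members missed the threshold, with unadjusted p-values of 0.00566 for Cd5l, 0.00689 for Msr1, 0.00735 for Ly6c2 and 0.0212 for Cd163.

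Other genes of these cells and of the routes by which they act were counted in lists, beside the share of all genes called higher (25.4% at 24 h and 16.1% at 72 h) or lower (24.3% at 24 h and 11% at 72 h). The lists, like the members, were chosen with earlier results of these data known, so the counts are descriptive. Of 12 further border macrophage genes, 9 were higher at 24 h and 12 at 72 h, with median log2 fold changes of 1.12 and 1.75 and none lower. Ms4a6c, a membrane protein of macrophages and monocytes, led with 3.50 ± 0.51 at 24 h and 3.84 ± 0.52 at 72 h. Pf4, which border macrophages share with platelets, had 2.26 ± 0.45 and 2.79 ± 0.45 at the same stages. Dab2, an endocytic adaptor, had 1.83 ± 0.25 at 24 h and Ms4a7 had 2.69 ± 0.40 at 72 h. As with the members, single libraries weighed on the 72 h folds. The median of Pf4 was 0.343 CPM in sham, 1.42 at 24 h and 1.05 at 72 h, with a highest library of 18.9 CPM at 72 h, and that of Ms4a6c was 0.144, 1.64 and 0.807 CPM in the same order, with a highest of 8.88 CPM. Neither passed the test between 72 and 24 h (adjusted p = 0.331 for Pf4 and 0.572 for Ms4a6c). Of the genes of monocyte recruitment and differentiation, 24 of 25 could be tested. At 24 h 15 were higher and 3 lower, and at 72 h 16 were higher and 1 lower, with medians of 1.27 and 1.43. Chil3, a chitinase-like protein of monocytes, had 5.09 ± 1.43 at 72 h, where its median was 0.320 CPM and its highest library 23.0 CPM, beside a median of 0.0463 CPM in sham. Those lower at 24 h were Il34 (-0.21), the microglial growth factor, Cx3cl1 (-0.73), the neuronal chemokine, and Nr4a1 (-0.70). Nr4a1 encodes a nuclear receptor needed for patrolling monocytes. It averaged 122 CPM in sham and 78.6 CPM at 24 h, while Ccr2 averaged 0.182 CPM in sham. In which cells Nr4a1 fell was not tested.

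Scavenging and heme handling genes were mixed, with 7 of 15 tested genes higher and 3 lower at 24 h, and 7 higher and 1 lower at 72 h (medians 0.21 and 0.28). Hmox1, the enzyme that breaks down heme, had 4.59 ± 0.56 at 24 h and 2.70 ± 0.54 at 72 h. Hp, the hemoglobin-binding ligand that CD163 recognises, had 1.96 ± 0.51 at 24 h, and Cd68, a lysosomal protein of phagocytes, had 1.95 ± 0.25 at 24 h and 2.04 ± 0.25 at 72 h. Ftl1, the ferritin light chain, had 0.97 ± 0.18 at 72 h. The receptors Mertk (-0.51 ± 0.10) and Lrp1 (-0.34 ± 0.10) and the iron exporter Slc40a1 (-0.74 ± 0.11) were lower at 24 h. Of 9 tested macrophage transcription factors, 9 were higher at 24 h and 8 at 72 h (medians 1.30 and 1.21). Cebpb (2.35 ± 0.32), Runx1 (1.81 ± 0.29) and Spi1 (1.63 ± 0.24), which encodes PU.1, led at 24 h, and Runx1 (1.77 ± 0.29), Spi1 (1.62 ± 0.24) and Irf8 (1.37 ± 0.17) at 72 h.

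Markers of cells with which the members could be confused gave different counts. Of 8 microglia markers, 3 were higher and 3 lower at 24 h, and 6 were higher and none lower at 72 h. Of 6 testable neutrophil markers, 3 were higher at 24 h and 1 at 72 h, and their sum ran from 4.35 to 65.7 CPM at 24 h, from 5.06 to 29.1 CPM at 72 h and from 4.83 to 6.74 CPM in sham. Of 7 striatal neuron markers all were lower at both stages. Of 5 endothelial markers 4 were higher and 1 lower at 24 h. The part of these cells in the members' changes was not tested.

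Over the 24 group means, the genes most alike to each member by Pearson's r of log2 level were taken from 14374 genes. These values are descriptive and all groups share the same libraries. Msr1 was closest to Serpina3n (r = 0.986), a reactive astrocyte marker, with Gm49339 (0.981) and Ms4a6d (0.979) close behind. Cd5l was closest to Grn (0.984), which encodes the lysosomal protein progranulin, Myo1f (0.967) and Ctsd (0.966), the lysosomal protease cathepsin D. Siglec1 was closest to Wdfy4 (0.975), Lgals3bp (0.974) and Stab1 (0.973). Ccr2 was closest to Chil3 (0.93), Pirb (0.93) and Arg1 (0.914), all genes of myeloid cells. Mrc1 was closest to Thbs2 (0.894), whereas Lyve1 was closest to Cd109 (0.917) and Ly6c2 to Ednra (0.884). Cd163 was closest to Man2a1 (0.883) and Marco to Nf2 (0.789). Among the members, Cd5l and Siglec1 were the most alike pair (r = 0.942), followed by F13a1 and Ccr2 (0.884) and Mrc1 and F13a1 (0.882). Levels entered as log2 of mean CPM plus 0.5, and the highest group mean of Marco, 0.404 CPM, was under that offset. Cd5l exceeded 0.5 CPM only in AL, IF12 and EOD at 72 h (11.8, 6.32 and 2.86 CPM) and IF12 at 24 h (1.58 CPM). Its r values therefore rest mainly on those groups.

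Promoter letters are shown for members that stand for the patterns above: Mrc1 and F13a1, which moved together, Cd5l and Marco, which were almost without reads in sham, and Cd163, which did not pass the test against sham. The RefSeq promoter table (GRCm38.p6) held 7 of the 10 members and named no Msr1, Siglec1 or Lyve1 entry. Each line runs 5′ to 3′ on the gene's strand over 200 bases, from 250 to 51 bases before the transcript start. Capitals mark GAGGAA or its reverse complement TTCCTC, the core bound by PU.1, searched on both strands. The windows are chr2:14229164-14229363 (plus), chr13:37050295-37050494 (minus), chr3:87357631-87357830 (plus), chr1:120505075-120505274 (minus) and chr6:124304401-124304600 (plus), in the order of the lines.
Mrc1: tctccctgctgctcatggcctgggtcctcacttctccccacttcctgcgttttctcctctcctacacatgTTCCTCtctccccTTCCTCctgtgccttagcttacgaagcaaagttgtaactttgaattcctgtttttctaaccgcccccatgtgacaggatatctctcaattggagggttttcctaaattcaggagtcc
F13a1: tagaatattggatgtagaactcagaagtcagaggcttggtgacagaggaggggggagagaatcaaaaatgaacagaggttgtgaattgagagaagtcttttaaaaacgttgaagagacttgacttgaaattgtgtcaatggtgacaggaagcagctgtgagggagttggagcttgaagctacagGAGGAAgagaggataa
Cd5l: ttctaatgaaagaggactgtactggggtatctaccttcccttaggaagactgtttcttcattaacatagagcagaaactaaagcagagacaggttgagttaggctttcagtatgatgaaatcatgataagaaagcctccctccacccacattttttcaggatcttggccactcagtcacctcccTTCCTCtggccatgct
Marco: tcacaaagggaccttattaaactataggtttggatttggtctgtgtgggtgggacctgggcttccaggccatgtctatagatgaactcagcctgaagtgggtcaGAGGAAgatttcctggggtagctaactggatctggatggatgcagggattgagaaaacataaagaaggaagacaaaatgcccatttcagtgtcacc
Cd163: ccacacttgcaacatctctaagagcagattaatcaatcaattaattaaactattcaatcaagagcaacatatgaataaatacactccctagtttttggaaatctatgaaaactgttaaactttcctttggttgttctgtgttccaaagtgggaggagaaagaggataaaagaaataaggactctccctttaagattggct
The core was present in windows of 5 of the 7 members (Cd5l, F13a1, Ly6c2, Marco and Mrc1), or 6 of 9 windows since some genes have more than 1 start, and in 18.8% of the 32851 windows of all genes. The Mrc1 window holds it at 2 places and the Cd163 window at none. Ccr2, whose letters are not shown, also lacked the core. Unlike Cd163, Ccr2 was called higher than sham late in reperfusion. The C/EBP letters TTGCNNAA were in no member window and in 8.11% of all windows. The MAF element TGCTGA was in no member window and in 13.1% of all windows. A match of letters is a description of the window, and binding was not measured.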

How the data were processed

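The authors deposited, for each gene and library, a whole-number read count and an FPKM value. CASAVA, TopHat2 and DESeq2 with the GRCm38/mm10 build are named in the submitters' processing notes, without versions. Per the labels' protocols, frozen tissue gave RNA of integrity above 7. FPKM as deposited by the authors matched counts over gene length and library total (largest relative deviation 1.71e-07) and served for gene lengths only.

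All tests used the deposited counts in R 4.3.3 with edgeR 4.0.16: TMM scaling (factors 0.912 to 1.09), filterByExpr with a minimum count of 10, a trended dispersion and the quasi-likelihood F test, with Benjamini-Hochberg adjustment over all genes of a contrast. The 51 contrasts came from 14 fits: the 72 libraries for averages, the 18 of a regimen for stroke, the 12 of a stage for fasting and the 36 of 2 regimens for interactions. Standard errors are the absolute log2 fold change over the square root of F. A symbol was found for 34490 of the 35275 identifiers, and 6816 genes had no read. The 72 pairs of libraries within groups differed by a chi-square of 5.18 to 180 per gene, above sampling noise, so all libraries were kept. Intervals and floors cover counting error only. The fits were tested on simulated data with known changes. These data had the same dispersion for all genes, and only genes above a minimum mean count were changed. The simulation therefore does not cover rare members such as Marco and Ly6c2, or libraries as uneven as those at 72 h.

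The members and the gene lists were chosen with earlier results of these data known. All 10 members are named. Of 4 other lists, the 3 called genes of largest absolute change at 24 h and at 72 h are named, besides Ly6c1 and the CCR2 ligands. Genes of these lists called lower were named after their values were seen. Likeness gave 3 genes per member, over genes with a mean of at least 1 CPM and on log2 of the mean CPM plus 0.5, and some of these are printed. Alternatives were DESeq2 1.42.0, RLE scaling, no filter, all 72 libraries in 1 fit, only the compared groups, the replicate number as a block, and leaving out each library. For interactions, only libraries of sham, 24 h and 72 h were left out. Leaving out 3 libraries of high fibroblast level was added after seeing the data.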

Additional observations from a re-analysis of the deposited data

Results flagged for a closer look

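Siglec1 differed in its stroke response between IF16 and AL, by a test of the difference over the 5 later stages (interaction adjusted p = 0.0104, edgeR, 3 libraries in each of 12 groups). The largest difference was at 72 h, -5.01 on the log2 scale, where Siglec1 was 1.01, 1.51 and 1.04 CPM in IF16 and 3.87, 6.66 and 20.8 CPM in AL. In sham the order was the other way, with 0.553, 0.616 and 0.350 CPM in IF16 and 0.102, 0.157 and 0.141 CPM in AL. The adjusted p was 1.63e-05 with DESeq2, 0.0101 with RLE scaling, 0.00158 without the filter, 0.0253 with the replicate block and 0.0219 without the AL library of high fibroblast level. Leaving out each of the 18 libraries of sham, 24 h and 72 h in turn gave 0.000288 to 0.117. Libraries of ischemia alone, 3 h and 12 h were not left out.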

How the results depend on the processing

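RLE scaling moved none of the 51 counts of called members and none of the 68 gene calls, and the averaged counts for the 5 stages against sham kept within 1.5 times under every setting tried. With DESeq2 the count of members was 5 and not 3 at 12 h in AL, 1 and not 0 at 12 h in EOD, IF12 and IF16, 3 and not 0 at 72 h in EOD, 2 and not 1 at 3 h in IF12 and IF16, and 1 and not 0 for IF12 against AL at 3 h, IF12 and IF16 against AL after ischemia alone and the IF12 interaction. Without the filter it was 5 at 12 h in AL and 1 at 12 h in IF12 and IF16, for IF16 against AL after ischemia alone and for the IF12 interaction. With all 72 libraries in 1 fit it was 2 at 12 h in EOD, 4 and not 2 at 24 h in EOD, 5 at 72 h in EOD, 2 and not 5 at 24 h in IF16, 0 and not 1 at 3 h in IF16, 0 and not 2 at 72 h in IF16, and 3 for IF16 against AL at 72 h. With only the compared groups it was 0 at 12 h in AL, 2 and not 6 at 72 h in AL, 2 at 12 h in EOD, 6 at 24 h in EOD, 7 and not 4 at 24 h in IF12, 2 and not 8 at 72 h in IF12, 1 at 24 h in IF16, and 1 for IF12 against AL at 3 h and IF16 against AL after ischemia alone. Without the 3 libraries of high fibroblast level it was 3 and not 6 for 72 h against 24 h, with F13a1 at -0.52 and not 0.82, 4 and not 8 at 72 h in IF12 and 1 for the IF12 interaction. The causes were not tested, apart from the number of samples and genes in the fits. The share of all genes called under each alternative setting is not given here, so a moved count need not concern the members alone.

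Same-numbered libraries of different groups did not deviate together on average (mean r -0.00631 over 828 pairs, 0.00357 over 1656 pairs of unlike number). Single pairs ran from -0.613 to 0.661 for the same number and from -0.686 to 0.648 for unlike numbers. A mean over all groups cannot show a pairing between only some of them. With the replicate block, the count at 24 h in EOD was 1 and not 2, the differences of Mrc1 (adjusted p = 0.0521) and F13a1 (adjusted p = 0.0789) between 72 and 24 h were no longer called, nor were Ccr2 at 24 h in EOD (adjusted p = 0.0532) and Msr1 at 12 h in AL (adjusted p = 0.0523), and Siglec1 kept its IF16 interaction (0.0253).

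Leaving out each library in turn, with a lone sample assumed to vary like the other groups, gave 3 to 7 members for 72 h against 24 h, 0 to 5 at 12 h and 2 to 4 at 24 h in AL, 0 to 2 at 24 h and 0 to 5 at 72 h in EOD, 0 at 3 h and 4 to 8 at 72 h in IF12, and 0 to 1 at 3 h, 0 to 1 at 12 h, 3 to 5 at 24 h and 0 to 1 at 72 h in IF16. It gave 0 to 1 for IF12 against AL after ischemia alone and for the IF12 interaction, and 0 to 3 for the IF16 interaction. For interactions, only the 18 libraries of sham, 24 h and 72 h were left out. Depth limits Marco (67 reads), Ly6c2 (626) and Ccr2 (1168).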
